A study of Mus musculus with 4 samples.

Results

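This account follows the genes that make, take up, move and export cholesterol in spleens from 2 wild type and 2 leukaemic mice, the latter with B cell leukaemia. The rule named 30 genes by symbol and set no threshold on their values, though it was written with earlier results of these data known. Of these, 27 had a probe set with that symbol alone, out of 19297 genes measured, and Acat2, Soat1 and Nr1h2 were not analysed here. The 27 comprised 17 synthesis enzymes, 4 genes that control the pathway, 4 of uptake, trafficking and storage, and 2 of efflux.

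All 4 mice were of the 129Sv strain and carried RBP-J flox/flox, so the controls had the floxed alleles too. Wild type mice were Ren1d+/+, and leukaemic mice had cre at both copies of this renin locus (Ren1dcre/cre), which places the recombinase in cells that use the locus. Wild type replicates 1 and 2 were females of 80 and 81 days with spleens of 0.12 g and 0.16 g. Leukaemic replicate 1 was a female of 107 days with a spleen of 0.7 g, and leukaemic replicate 2 a male of 93 days with a spleen of 0.47 g. Cre at Ren1d, any recombination of the floxed RBP-J alleles by it, age and spleen weight therefore cannot be told apart from the leukaemia. Sex was also unbalanced, since the male was a leukaemic mouse. Each mouse gave 1 array of whole-spleen RNA.

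Cells build cholesterol from acetyl-CoA. The mevalonate steps lead to farnesyl diphosphate, from which the squalene and sterol steps lead on to cholesterol and side branches lead to ubiquinone, dolichol and lipid anchors of proteins. When membrane cholesterol is low, the escort protein Scap brings the transcription factor precursor encoded by Srebf2 to the Golgi for cleavage, and most synthesis genes are its targets; Insig1 and Insig2 hold the precursor back. When sterols are plentiful, oxysterols activate the liver X receptors (LXR), whose classic targets include the exporters Abca1 and Abcg1 and the ubiquitin ligase gene Mylip. Macrophages of the spleen, which clear aged red cells, rely on the export arm.

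Of the 27 members, 0 were called higher and 0 lower by limma at an adjusted p under 0.05, where the background over all genes was 1.43% higher and 1.03% lower, or 2.46% in either direction. At an unadjusted p under 0.05 there were 8 members (29.6%), against 20.7% of all genes. Higher in leukaemic spleen at that level were the synthesis genes Hsd17b7, Idi1, Sqle and Cyp51 and the sterol carrier Stard4; lower were Abca1, Abcg1 and Mylip. The smallest member p, that of Abca1, ranked 500 among all genes, of which 475 were called. Values below are log2 expression, differences are leukaemic minus wild type with the standard error (SE) of the limma fit, and adjusted p is the Benjamini-Hochberg value of that fit over 19297 genes. The arrays of the groups did not overlap for 15 members (55.6%), 9 with leukaemic spleen above and 6 below, against 49.2% of all genes. In whole spleen, fewer cells of a type and less RNA per cell cannot be told apart.

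The arrays as a whole carried the leukaemia in Igll1, a precursor B cell gene, at 7.44 and 7.48 in wild type against 13.02 and 12.85 in leukaemic spleen. Rbpj itself read 9.99 and 9.74 against 9.78 and 9.18 (difference -0.38, SE 0.22, limma adjusted p = 0.41); no source used here says whether its probe set falls inside the floxed stretch, and the reading therefore checks no genotype. Wild type replicate 2 also held exocrine pancreas RNA: the mean of 8 acinar genes was 12.24 there and 6.95 to 7.08 on the other arrays. Synthesis genes differed between the wild type mice as well, with 12 of 17 lower in replicate 2 and a median of -0.22 (replicate 2 minus replicate 1), while over all genes 44.4% were lower in replicate 2 and the median was 0.04. Wild type replicate 2 enters the wild type mean of every synthesis difference below. The part of the pancreas RNA in these differences was not tested.

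Promoter sequence was not used in choosing the members. In the RefSeq windows of assembly GRCm38.p6 (250 bases before to 50 after a start site), 24 of the 30 named genes had an entry. CCAAT, the box bound by NF-Y, a partner of the Srebf2 product at many sterol genes, occurred on either strand in the windows of 14 of 15 synthesis genes. By window this was 77.8% of 18, against 37.4% of all 32851 windows. The box was not limited to synthesis genes: it lay in 60% of the 5 windows of uptake to efflux genes (Mylip, Npc2 and Soat1), in 42.9% of the 7 windows of control genes and in 66.7% of the 30 windows of all members. The sterol response element core, searched as TCACNCCAC on both strands, lay in 1 of the 15 synthesis genes, Hmgcs1. By window this was 5.56% of 18, against 1.24% of all windows. The narrower TCACCCCAC, which is contained in that core, matched Hmgcs1 as well and 0.551% of all windows. CACGTG, the E-box, matched 3 of the 15, Hsd17b7, Sc5d and Dhcr7. By window this was 16.7% of 18, against 7.15% of all windows. It also lay in 42.9% of the 7 windows of control genes (Insig1 and Scap) and in the window of Abca1. A direct repeat of the core of the LXR half-site matched 0 of 24 member genes and 0.0457% of all windows. The pattern searched set the cores closer together than they lie in the LXR element. The LXR element itself was therefore not tested. These matches describe letters in a window and are not shown to be bound.

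The 250 bases before the start site are shown for 3 synthesis genes and for the exporter Abca1. They were chosen after the values were seen: Hmgcs1 for its sterol element, Hsd17b7 and Idi1 as the synthesis genes with the largest differences, and Abca1 as the member with the smallest p. Capitals mark CCAAT or its reverse complement ATTGG and, in Hmgcs1, the sterol element. Each is read 5′ to 3′ on the strand of the gene.
Hmgcs1, plus strand, chr13:119690101-119690350: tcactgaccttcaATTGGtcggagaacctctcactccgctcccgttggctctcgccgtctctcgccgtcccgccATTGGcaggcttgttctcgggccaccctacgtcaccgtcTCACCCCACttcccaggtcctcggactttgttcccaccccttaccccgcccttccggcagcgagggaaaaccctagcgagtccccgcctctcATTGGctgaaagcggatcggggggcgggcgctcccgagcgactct
Hsd17b7, minus strand, chr1:169969206-169969455: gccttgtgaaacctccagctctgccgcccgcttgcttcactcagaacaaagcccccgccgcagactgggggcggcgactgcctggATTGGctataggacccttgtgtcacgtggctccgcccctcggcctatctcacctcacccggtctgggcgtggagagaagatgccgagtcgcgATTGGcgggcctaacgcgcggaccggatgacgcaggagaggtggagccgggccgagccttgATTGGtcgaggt
Idi1, plus strand, chr13:8885356-8885605: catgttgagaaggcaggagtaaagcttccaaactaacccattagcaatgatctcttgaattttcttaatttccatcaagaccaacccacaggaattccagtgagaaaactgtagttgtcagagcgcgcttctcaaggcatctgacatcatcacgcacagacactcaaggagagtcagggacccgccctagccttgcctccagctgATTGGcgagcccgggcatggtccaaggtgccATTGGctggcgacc
Abca1, minus strand, chr4:53159896-53160145: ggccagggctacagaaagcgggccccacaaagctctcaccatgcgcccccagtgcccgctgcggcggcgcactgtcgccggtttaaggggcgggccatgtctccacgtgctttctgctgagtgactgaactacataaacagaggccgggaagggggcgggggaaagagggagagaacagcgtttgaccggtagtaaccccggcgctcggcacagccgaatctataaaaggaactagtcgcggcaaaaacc
Hmgcs1 and Hsd17b7 hold 3 NF-Y boxes each in these stretches, Idi1 holds 2 and Abca1 holds 0. Abca1 does not stand for its side of the pathway here, since the whole window of Mylip holds 3 and that of Npc2 holds 2. In Hmgcs1 the sterol element begins 137 bases before the start site, between boxes that begin at 176 and 45 bases.

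Among the mevalonate steps, Idi1 differed most. This isomerase interconverts the 2 activated isoprene units from which all later products are joined. Its values were 9.55 and 8.95 in wild type replicates 1 and 2 and 10.03 and 9.93 in leukaemic replicates 1 and 2. Both leukaemic arrays lay above both wild type arrays, and the wild type mice stood farther apart than the leukaemic ones. The difference was 0.74 (SE 0.21), which is 1.66-fold, with limma adjusted p = 0.12. Without wild type replicate 2, the array with pancreas RNA, it was 0.43, and without wild type replicate 1 it was 1.04. A second Idi1 probe set read 9.19 and 8.73 against 9.80 and 9.68, a difference of 0.78 (SE 0.19). The probe set used in the fit, which had the higher mean, is numbered among probe sets of chromosome 2 genes (20 of its 20 neighbours), while Idi1 and all 20 neighbours of the second set lie on chromosome 13. No source used here says whether the first set reads a copy of the gene.

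Hmgcs1, the cytosolic synthase of HMG-CoA, read 9.26 and 9.23 in wild type against 9.63 and 9.50 in leukaemic spleen. The groups did not overlap, and the test was not passed (difference 0.32, SE 0.14, limma adjusted p = 0.26). Mvk, the kinase of mevalonate, was at 8.55 and 8.23 in wild type against 8.57 and 8.62 in leukaemic spleen. Its groups were separated by only 0.02, and the difference of 0.21 (SE 0.16) came mainly from the low value of wild type replicate 2; without that mouse it was 0.04. The kinase gene Pmvk, the next step, had a difference of 0.00 (95% interval of the fit -0.33 to 0.34). Mvd, the decarboxylase that makes the first isoprene unit, was the mevalonate gene with a lower mean in leukaemic spleen, with 8.15 and 8.35 against 8.05 on both arrays (difference -0.19, SE 0.14). Fdps, which joins isoprene units to farnesyl diphosphate at the branch point of the pathway, differed by 0.06 (interval -0.28 to 0.40). Across these 6 genes the median difference was 0.13, against -0.03 over all genes tested.

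**Figure D1:**
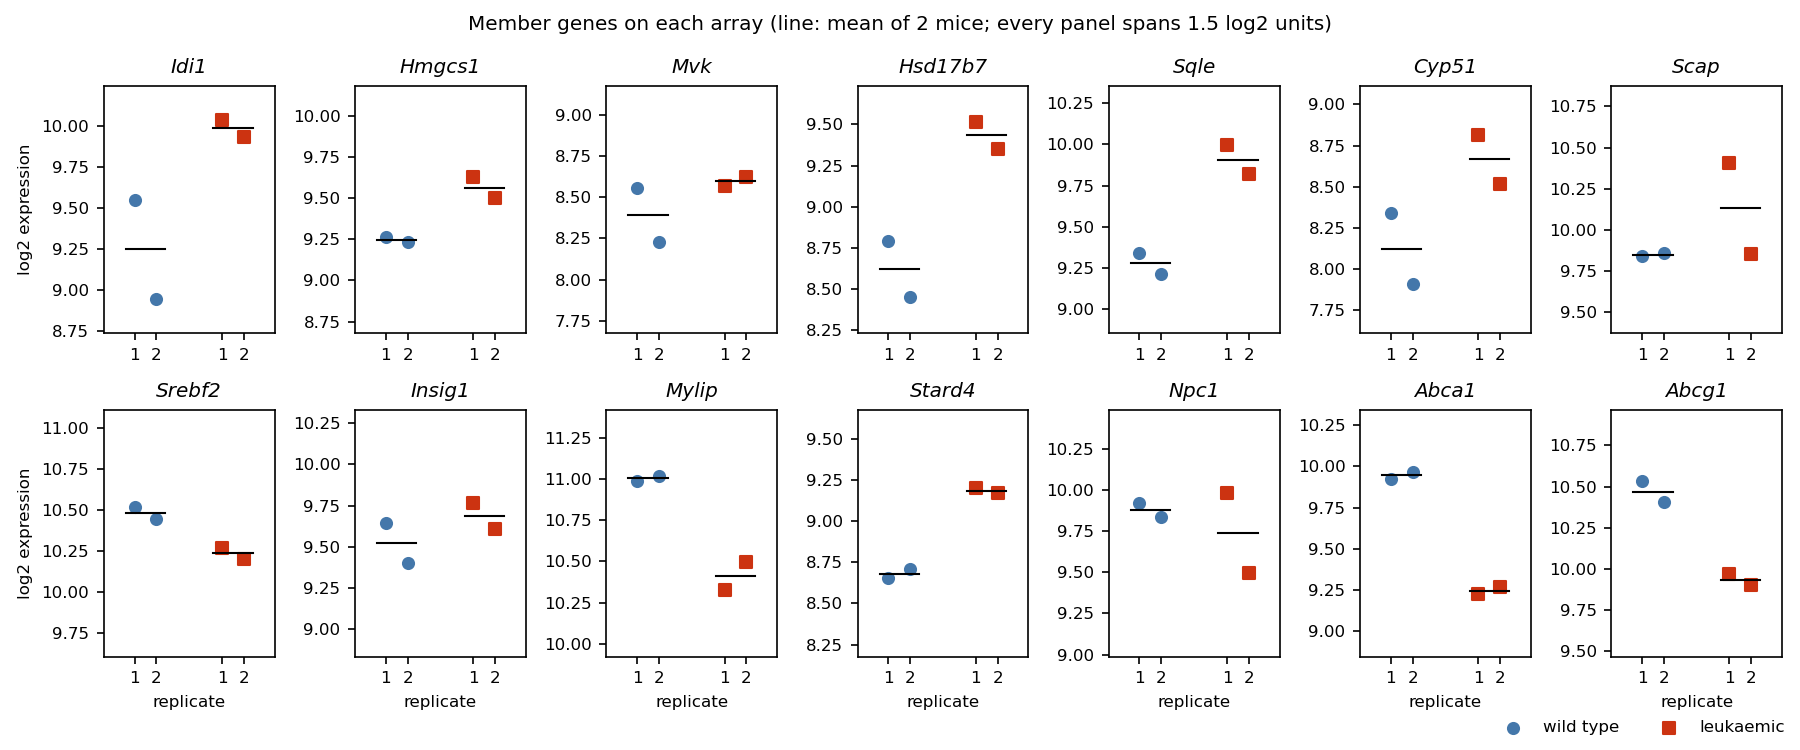
Log2 expression of 14 member genes on each array, by group and replicate, for up to 3 genes of largest difference in each functional group; points are mice and lines are means of 2. Hsd17b7, Sqle and Stard4 stand above wild type on both leukaemic arrays, Abca1, Abcg1 and Mylip stand below, and for Scap and Npc1 a single leukaemic mouse stands apart.

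The committed sterol steps were uneven. Fdft1, the squalene synthase that draws farnesyl diphosphate into the sterol branch, had a difference of -0.03 (interval -0.35 to 0.29), and its second probe set gave -0.03 as well. Sqle, the epoxidase that follows and a rate-controlling step, read 9.34 and 9.21 in wild type against 9.99 and 9.82 in leukaemic spleen. All leukaemic values lay above all wild type values. The difference was 0.63 (SE 0.15), 1.54-fold, with limma adjusted p = 0.073. Lss, which closes the ring to lanosterol, was at 8.33 and 8.11 against 8.52 and 8.23, so that the groups overlapped (difference 0.16, SE 0.17).

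Cyp51, the lanosterol demethylase, read 8.34 and 7.91 in wild type against 8.82 and 8.52 in leukaemic spleen. Its groups did not overlap, though mice of each group differed by 0.43 and 0.30. The difference of 0.54 (SE 0.20, limma adjusted p = 0.18) was 0.33 without wild type replicate 2. Tm7sf2, the sterol reductase that acts next, was lower by a small step, at 7.81 and 7.86 against 7.71 and 7.70 (difference -0.14, SE 0.13). Lbr, the inner nuclear membrane protein with the same reductase activity, stands outside the member list; it read 11.71 and 11.94 against 12.05 and 12.11 (difference 0.26, SE 0.15, limma adjusted p = 0.41). It was 0.14 without wild type replicate 1 and 0.37 without wild type replicate 2.

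Msmo1, Nsdhl and Hsd17b7 serve, among the members, the removal of methyl groups that follows the step of Cyp51, and none of these 3 was called. Msmo1, the oxidase that starts it, was at 9.77 in wild type replicate 1, 9.19 in wild type replicate 2, and 9.46 and 9.42 in leukaemic spleen. The wild type mice bracketed the leukaemic ones, and the difference of -0.04 turned to 0.25 without wild type replicate 1 and to -0.33 without wild type replicate 2. The decarboxylating dehydrogenase gene Nsdhl, on the X chromosome, likewise overlapped at 9.83 and 9.48 against 9.74 and 9.75 (difference 0.09, SE 0.16). Hsd17b7, the reductase that ends the cycle, had the largest difference of all members. It read 8.79 and 8.45 in wild type against 9.52 and 9.35 in leukaemic spleen. The lowest leukaemic value lay 0.56 above the highest wild type value. The difference was 0.81 (SE 0.17), 1.76-fold, with limma adjusted p = 0.060; it was 0.64 without wild type replicate 2, and it passed with arrays centred on their medians (adjusted p = 0.049).

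The last sterol steps gave no call. Ebp, the X-linked sterol isomerase, was at 9.57 and 9.20 against 9.65 and 9.70, just without overlap (difference 0.29, SE 0.17; 0.11 without wild type replicate 2). The desaturase gene Sc5d differed by 0.01 (interval -0.35 to 0.38), and Dhcr7, the reductase of the final step, by 0.07 (interval -0.26 to 0.41). Over the 11 genes from squalene to cholesterol the median difference was 0.09, with a range from -0.14 to 0.81. Over all 17 synthesis genes it was 0.09 too, 0.27 without wild type replicate 1 and 0.05 without wild type replicate 2, against -0.03 over all genes. Of the 17, 13 had a difference above 0, as had 8465 of the 19297 genes tested. In 7 of the 17 the leukaemic arrays lay wholly above wild type (background 23.0%), in 2 wholly below (26.2%), and in 8 the groups overlapped. At an unadjusted p under 0.05 there were 4, or 23.5% of the 17, near the 20.7% of all genes. Of 9 proliferation markers 3 were called higher, against 1.43% of all genes. The mean of the 9 was 10.76 and 11.03 in wild type against 11.65 and 11.52 in leukaemic spleen. Their part in the synthesis differences was not tested.

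**Figure D2:**
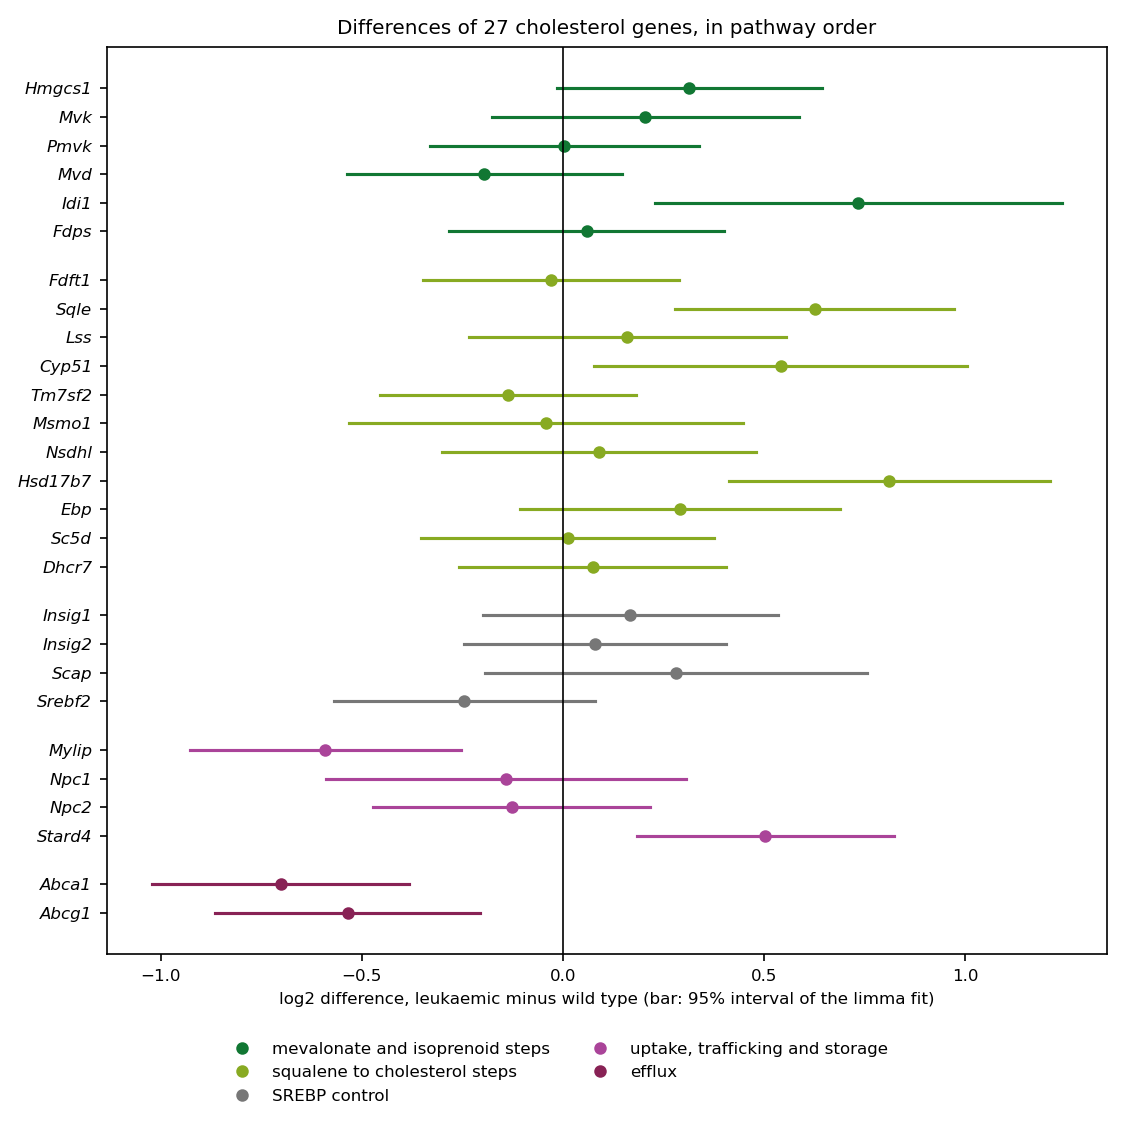
Difference between leukaemic and wild type spleens (log2) for the 27 members in pathway order, with the 95% interval of the limma fit, which is not adjusted for the number of genes. The intervals of 19 members hold 0; those above 0 belong to Idi1, Sqle, Cyp51, Hsd17b7 and Stard4, and those below 0 to Mylip, Abca1 and Abcg1.

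**Figure D3:**
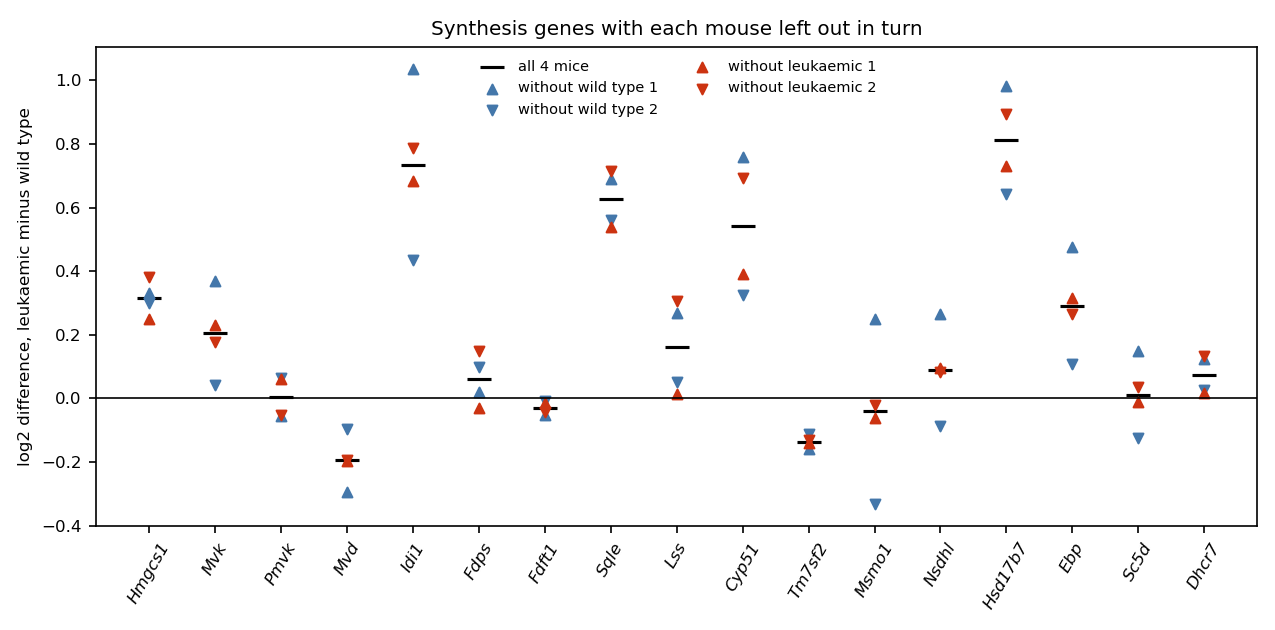
Difference between leukaemic and wild type spleens (log2) for the 17 synthesis genes with all mice (dash) and with each mouse left out in turn (triangles). Hsd17b7 ranges from 0.64 to 0.98 and Idi1 from 0.43 to 1.04, the lowest value of each without wild type replicate 2.

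The 4 control genes gave no call, and 0 reached an unadjusted p under 0.05. Srebf2, the transcription factor gene, read 10.52 and 10.44 in wild type against 10.27 and 10.20 in leukaemic spleen. Its leukaemic values were both below wild type, with a difference of -0.24 (SE 0.14, limma adjusted p = 0.39). Scap was at 9.84 and 9.86 in wild type, 10.41 in leukaemic replicate 1 and 9.86 in leukaemic replicate 2. The mean difference of 0.28 (SE 0.20) thus rested on leukaemic replicate 1, and it was 0.01 without that mouse. Insig1, a target of the same factor that also restrains it, read 9.64 and 9.40 against 9.77 and 9.61 (difference 0.17, SE 0.15; 0.05 without wild type replicate 2), with overlapping groups. Insig2 differed by 0.08 (interval -0.25 to 0.41). Among other control genes, 0 of 4 were called. The ubiquitin ligase genes Rnf139 and Rnf145, whose products act in the endoplasmic reticulum membrane, had differences of -0.38 (SE 0.15) and -0.34 (SE 0.19), and Rnf145 read 10.52 in leukaemic replicate 1 and 11.00 in leukaemic replicate 2 against 11.07 and 11.13 in wild type.

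Uptake, trafficking and storage were covered by 4 members. Mylip, which marks lipoprotein receptors for degradation, read 10.99 and 11.02 in wild type against 10.33 and 10.50 in leukaemic spleen. The wild type mice were 0.03 apart and both leukaemic mice lay below them. The difference was -0.59 (SE 0.14), or 1.51-fold lower, with limma adjusted p = 0.077. Stard4, which carries sterol between membranes and is itself an SREBP target, went the other way, at 8.65 and 8.71 in wild type against 9.20 and 9.17 in leukaemic spleen. Neither group spread by more than 0.06, and the difference of 0.50 (SE 0.13), 1.42-fold, had limma adjusted p = 0.098. It was 0.53 without wild type replicate 2.

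Npc1 and Npc2, which together release cholesterol from lysosomes after uptake, gave no call. Npc1 was at 9.92 and 9.83 in wild type, 9.98 in leukaemic replicate 1 and 9.50 in leukaemic replicate 2. The male mouse alone was low, and the difference of -0.14 (SE 0.19) became 0.10 without it. Npc2 read 10.58 and 10.38 against 10.40 and 10.31 (difference -0.13, SE 0.14).

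Both export genes were lower on both leukaemic arrays. Abca1, the transporter that loads cholesterol onto lipid-poor apolipoprotein, read 9.93 and 9.97 in wild type against 9.22 and 9.27 in leukaemic spleen. Mice of a group differed by 0.04, while the groups lay 0.66 apart at their nearest. The difference was -0.70 (SE 0.13), or 1.63-fold lower, with limma adjusted p = 0.0513, just outside the threshold. It was -0.68 without wild type replicate 2. Abcg1, which exports cholesterol to larger lipoproteins, read 10.53 and 10.40 against 9.97 and 9.90. The groups again did not overlap, and the difference was -0.53 (SE 0.14), 1.45-fold lower (limma adjusted p = 0.092). Over the 6 members of uptake to efflux the median difference was -0.34. It was -0.13 over the 4 genes of uptake, trafficking and storage and -0.62 over the 2 of efflux. Of the 6, 5 lay below 0, as did 10832 of the 19297 genes tested.

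Macrophage markers gave no call either. Of 15 measured, 14 lay below wild type in the mean, where over all genes 10832 of 19297 did. Calls numbered 0, and 11 of the 15 were lower at an unadjusted p under 0.05, against 10.6% of all genes. The median difference of the 15 was -0.52. Their mean was 10.93 and 10.69 in wild type against 10.19 and 10.30 in leukaemic spleen. Cd68 differed by -0.60 (SE 0.17), Csf1r, the receptor of the macrophage growth factor, by -0.52 (SE 0.15) and Adgre1, the F4/80 antigen, by -0.28 (SE 0.18). Over the 15 the differences ran from -0.95 for Siglec1 to 0.00 for Cd163. Their part in the differences of Abca1, Abcg1 and Mylip was not tested.

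The rest of the pathway was read from 44 measured genes of 7 further lists, in which 0 were called higher and 1 lower. Over all genes 2.46% were called in either direction, so 1 call among 44 is near the background. The gene called was Cyp27a1, the mitochondrial sterol hydroxylase that makes the LXR ligand hydroxycholesterol and is abundant in macrophages. It read 9.95 and 9.78 in wild type against 9.02 and 8.67 in leukaemic spleen. Every leukaemic value lay below every wild type value, and Cyp27a1 fell by 1.02 on the log2 scale (SE 0.17, 2.03-fold, limma adjusted p = 0.037). The call was lost with quantile normalization (limma adjusted p = 0.053) and against a minimum change of 1.2-fold (0.10). The difference was -0.94 without wild type replicate 1 and -1.10 without wild type replicate 2. It was -1.20 without leukaemic replicate 1 and -0.84 without leukaemic replicate 2. Such fits leave a single mouse in 1 group, so the call is not judged from them. The other 5 oxysterol enzyme genes were not called.

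On the list of genes that move or store sterol beyond the members, 10 of 10 were lower in the mean, without a call. Over all genes 10832 of 19297 were lower in the mean. In the list, 8 lay wholly below wild type (background 26.2%). Star, whose product moves cholesterol into mitochondria, was listed with the markers of steroid-producing cells and went the other way. It read 9.37 and 9.46 in wild type against 10.50 and 9.97 in leukaemic spleen (difference 0.82, SE 0.20, limma adjusted p = 0.077). Gramd1b, which carries cholesterol from the plasma membrane to the endoplasmic reticulum, read 9.84 and 9.63 in wild type against 8.83 and 9.05 in leukaemic spleen. The groups stood well apart, with a difference of -0.80 (SE 0.16, limma adjusted p = 0.054). The hormone-sensitive lipase gene Lipe, whose product also cleaves cholesteryl esters, read 9.31 and 9.12 against 8.57 and 8.66 (difference -0.60, SE 0.14, limma adjusted p = 0.078). The list had a median of -0.34, beside the -0.52 of the macrophage markers, whose part in it was not tested.

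Other efflux genes gave 0 calls among 6, with 6 of 6 below wild type in the mean, where over all genes 10832 of 19297 were. Nr1h3, which encodes the LXR form of macrophages, read 10.06 and 9.83 in wild type against 9.54 and 9.42 in leukaemic spleen. Its difference was -0.47 (SE 0.15, limma adjusted p = 0.15), without overlap. Abca7, a transporter related to Abca1, was at 9.40 and 9.90 against 9.20 and 9.18 (difference -0.46, SE 0.19). That difference was -0.21 without wild type replicate 2 and -0.71 without wild type replicate 1. Among lipoprotein receptors 0 of 6 were called; Lrp1, a large endocytic receptor, differed by -0.39 (SE 0.14). The scavenger receptor gene Cd36 read 11.20 and 11.13 against 10.97 and 10.71 (difference -0.33, SE 0.15). Leaving out leukaemic replicate 1 gave -0.46, and leaving out leukaemic replicate 2 gave -0.20.

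The isoprenoid branches, which use farnesyl diphosphate for other ends, gave 0 calls among 11 genes, though 11 of 11 lay above wild type in the mean. Over all genes 8465 of 19297 did. In 9 of the 11 the leukaemic arrays lay wholly above wild type, where the background was 23.0%. Some of these gaps were small, such as 0.0076 for Dhdds and 0.012 for Rce1. At an unadjusted p under 0.05 there were 2, or 18.2% of the 11, near the 20.7% of all genes. Between the wild type mice, 9 of the 11 were lower in replicate 2, the array with pancreas RNA, against 44.4% of all genes. Pggt1b, a subunit of a protein prenyltransferase, read 9.76 and 9.66 in wild type against 10.23 and 10.11 in leukaemic spleen (difference 0.46, SE 0.14, limma adjusted p = 0.13). Nus1, part of the enzyme that makes dolichol chains, was at 10.50 and 10.19 against 10.88 and 10.73 (difference 0.46, SE 0.16, limma adjusted p = 0.18); without wild type replicate 2 it was 0.30. The list's median difference was 0.14, close to the 0.13 of the mevalonate steps that feed it.

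**Figure D4:**
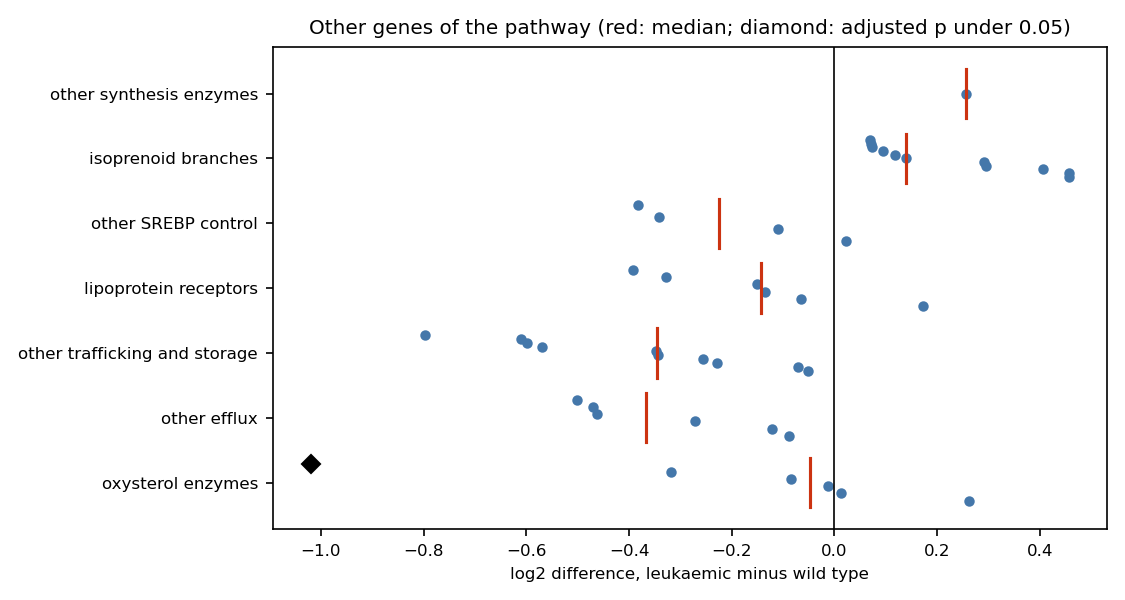
Difference between leukaemic and wild type spleens (log2) for 44 other genes of cholesterol and isoprenoid metabolism by list; each point is a gene and red lines are list medians. The diamond is Cyp27a1 at -1.02, the gene that was called; the 11 isoprenoid branch genes lie above 0 and the 10 trafficking and storage genes below.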

How the data were processed

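Values deposited by the authors are log2 expression for each probe set on each array. The submitters' processing notes name RMA, R 2.15.0 and limma 3.12.1; settings are not given in those notes. Of 23309 probe sets, 20729 had 1 gene symbol, 1174 several and 1406 none in the platform annotation; only the first were named, and 0 symbols changed through the GRCm38.p6 gene table. Groups and replicate numbers came from the sample titles, and the design text calls the replicates individual mice. Differences were fitted with limma 3.58.1 in R 4.3.3 (lmFit, eBayes, no covariate, dim probe sets kept), with 2 residual and 4.83 prior degrees of freedom. For each gene the probe set of highest mean was kept, and p-values were adjusted by Benjamini-Hochberg over 19297 genes. The scripts were tested on simulated data. Detection above background was not analysed here, and the number of arrays limits the precision. In 2 against 2 mice an exact permutation test cannot go below a two-sided p of 0.333.

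The members, gene lists and tests were chosen with earlier results of these data known. The naming rule gave array values for called members and for up to 3 members of largest difference per group, and for other pathway genes the called ones or else 2 of smallest p per list; further members are given too so that each is accounted for, and Cd68, Csf1r and Adgre1 were picked by name from the marker list. Marker lists covered macrophages, precursor B cells, T cells, neutrophils, erythroid cells, proliferation, exocrine pancreas, liver, steroid-producing cells and fat. Promoter windows came from RefSeq, where Fdps, Fdft1, Sqle, Stard4, Npc1 and Abcg1 had no match; the rule allowed promoters of called members only, so those shown were chosen outside it. Alternatives tried were array centring, quantile normalization, omission of dim genes, the variance prior, a minimum change, the choice of probe set, the rows fitted, the replicate number as a block and each mouse left out.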

Additional observations from a re-analysis of the deposited data

How the results depend on the processing

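Calls among the members sat at the threshold and moved with the fit. Centring on array medians called 1 member higher, Hsd17b7, a synthesis gene, and 0 lower. Leaving out the dimmest 33.3% of genes, or averaging the probe sets of a gene, called 1 lower, Abca1. A trended, robust variance prior called 1 higher, again Hsd17b7, and 2 lower, Abca1 and Mylip. With the replicate number as a block, 3 synthesis genes were called higher (Hsd17b7, Idi1 and Sqle) and 1 member lower (Abca1), with 785 genes higher and 908 lower in all, against 276 and 199; this fit has 1 residual degree of freedom, and the numbers are not known to pair the mice (correlation of same-numbered deviations -0.086). Quantile normalization, a minimum change of 1.2-fold and all probe sets in the fit called 0 members. Other pathway genes called numbered 1, but 0 with quantile normalization or the minimum change, and 2 with the trended prior, averaged probe sets or the block. With a mouse left out, members called were 0 in every case and other pathway genes 0 to 1, where the fits called 0 to 450 genes higher and 0 to 593 lower. The synthesis median ranged from 0.051 to 0.27 in those fits, and the Npc1 difference from -0.38 to 0.10. Detection limits could not be set without background values.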

Other observations

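Marker lists of the other cell types in a spleen sample are given here as values. For the calls below, the share over all genes was 1.43% higher and 1.03% lower. Of 9 precursor B cell markers 5 were called higher, with list means of 8.88 and 8.77 in wild type against 10.66 and 10.97 in leukaemic spleen. Of 9 T cell markers 6 were called lower, with means of 10.49 and 10.13 against 8.77 and 9.44. In that list 8 genes were lower in the mean and 1, Il7r, was higher (difference 0.83, SE 0.30, not called). Of 10 neutrophil markers 2 were called lower, with means of 10.92 and 10.91 against 9.24 and 10.18. Of 9 erythroid markers 0 were called; their mean was 11.16 in wild type replicate 1, 11.75 in wild type replicate 2 and 11.07 and 10.89 in leukaemic spleen. Liver, steroid-producing and fat markers, from tissues with high sterol turnover, gave 0 calls among 9, 8 and 7 genes, with median differences of -0.12, 0.01 and -0.18. The 8 steroid-producing markers ranged from -0.84 (Cyp21a1) to 0.82 (Star). Over the 8 exocrine pancreas genes the median difference was -2.57, with 0 called.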
